A study of Mus musculus with 6 samples.

Results

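The mitochondrial ribosomal protein genes were taken as every gene whose symbol begins with Mrpl or Mrps followed by a digit. The count table held 77 of them among 21878 genes, 48 named for the large subunit (Mrpl) and 29 named for the small subunit (Mrps), and all 77 passed the filter on low counts. Transcripts were measured in bulk RNA of bone marrow-derived macrophages of wild-type C57BL/6 mice. Marrow flushed from femurs and tibias was grown in 50 ng/mL macrophage colony-stimulating factor (M-CSF). The macrophages of both groups had shared medium for 48 h with LLC cells, a mouse Lewis lung carcinoma line, across a transwell membrane with pores of 0.4 µm. After a change of medium, 3 libraries came from macrophages given 100 µg/mL β-elemene, a plant sesquiterpene, for 24 h, and 3 came from macrophages given an equal volume of PBS for the same time. The title of the series concerns reprogramming of tumour-associated macrophages, and the design sets the drug against PBS. No group without LLC cells was analysed here. The labels do not say that the 3 libraries of a group came from separate mice or cultures, and p-values therefore reflect only how far libraries of a group differ, a spread that may be technical.

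Mitochondria carry their own ribosome, which makes the few respiratory chain subunits encoded by mitochondrial DNA. Its RNAs come from the mitochondrial genome, whereas all of its proteins are encoded in the nucleus, made in the cytosol and imported. The small subunit binds the mRNA and reads its codons, and the large subunit joins the amino acids. Some of the proteins descend from proteins of the bacterial ribosome and others are found only in mitochondria.

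Totals were between 18916844 and 20550078 counts in the β-elemene libraries and between 20524959 and 20729887 in the PBS libraries. Scaling by the trimmed mean of M-values (TMM), which assumes that most genes do not change, gave factors between 0.794 and 0.812 for the β-elemene libraries and between 1.24 and 1.26 for the PBS libraries. Of 11459 genes tested with edgeR's quasi-likelihood test, 4189 were higher with β-elemene and 4602 lower at a Benjamini-Hochberg adjusted p below 0.05. With library size alone as the scale the split was 2166 higher and 8003 lower, and with the upper quartile 2947 and 6528. The median log2 fold change over all tested genes was -0.06 with TMM, -0.02 with median-of-ratios scaling, -0.37 with the upper quartile and -0.70 with library size alone. Directions below are those with TMM unless another scale is named. Levels are given as CPM, which here are read counts scaled by both the library total and the TMM factor. Macrophage markers summed to 15333 to 15979 CPM in the β-elemene libraries, against 12456 to 13407 CPM in the PBS libraries. Of the 7 macrophage markers, 5 were higher and 2 lower. The TMM factors decide the order of these macrophage sums, which would be lower with β-elemene on library totals alone. The 5 epithelial or LLC markers summed to between 0.0613 and 0.130 CPM in the β-elemene libraries and to between 119 and 146 CPM in the PBS libraries. Cdh1 made up nearly all of that sum, at 0.0434 CPM with β-elemene and 134 CPM with PBS on average, while Krt19 was at 0 in every library and Epcam, Krt8 and Krt18 averaged at most 0.0258 CPM. Fibroblast markers were also lower with β-elemene, at 0.260 to 1.84 CPM against 11.5 to 14.6 CPM with PBS, and neutrophil markers lay between 20.7 and 23.4 CPM in the β-elemene libraries and between 8.65 and 11.6 CPM in the PBS libraries. S100a8 and S100a9 made up most of that sum, while Mpo was lower with β-elemene (0.145 CPM, against 1.54 CPM with PBS) and Elane averaged 0.0204 CPM with β-elemene and 0.272 CPM with PBS. The part of these cells in the results below was not tested. In bulk RNA, fewer cells of a type and less RNA per cell cannot be told apart.

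The promoters of 68 of the 77 genes were in the RefSeq table for GRCm38.p6, which gives 250 bases before and 50 bases after each start. Stretches of 100 bases before the start are shown for genes at the ends and in the middle of the response: a pair that were among the strongest rises, the gene with the highest level for its length, and 3 genes that fell. For Mrpl27 and Mrps27 the start used lies inside the gene, since their spans begin at 94653770 and 99344767. Their stretches thus hold some bases of the gene. The last line holds the shared start region of a gene of each subunit, read on the plus strand. Capitals mark the ETS core CCGGAAG or the YY1 core AAGATGG on either strand, which are short motifs bound by transcription factors of many housekeeping genes.
Mrpl30, chr1:37890377-37890476, plus strand: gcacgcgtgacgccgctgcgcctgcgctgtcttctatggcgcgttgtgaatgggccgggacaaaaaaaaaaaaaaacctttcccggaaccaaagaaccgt
Mrpl27, chr11:94653691-94653790, plus strand: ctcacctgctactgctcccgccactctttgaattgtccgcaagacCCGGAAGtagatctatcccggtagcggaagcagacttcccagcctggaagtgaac
Mrpl52, chr14:54426809-54426908, plus strand: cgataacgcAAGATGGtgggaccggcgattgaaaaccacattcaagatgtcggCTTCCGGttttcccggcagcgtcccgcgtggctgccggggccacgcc
Mrpl42, chr10:95501950-95502049, minus strand: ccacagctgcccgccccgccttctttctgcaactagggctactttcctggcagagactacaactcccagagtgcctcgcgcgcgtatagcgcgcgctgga
Mrps26, chr2:130563657-130563756, plus strand: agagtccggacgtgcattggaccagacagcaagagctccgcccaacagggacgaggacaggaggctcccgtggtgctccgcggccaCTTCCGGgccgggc
Mrps27, chr13:99344686-99344785, plus strand: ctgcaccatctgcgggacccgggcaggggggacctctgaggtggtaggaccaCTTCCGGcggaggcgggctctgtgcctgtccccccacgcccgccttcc
Mrpl46 and Mrps11, chr7:78783060-78783160: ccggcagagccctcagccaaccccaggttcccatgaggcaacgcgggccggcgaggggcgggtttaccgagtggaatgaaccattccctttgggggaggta

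Promoters with such motifs were frequent among these genes whether they were higher or lower with β-elemene. Over the full 300 bases and both strands, the ETS core CCGGAAG was in 25 of the 68 promoters (36.8%), against 21.2% of 9246 tested genes with a promoter and 13.0% of all 17267 promoters in the table. The YY1 core AAGATGG was in 13 (19.1%), against 8.76% of tested genes and 7.15% of all promoters. The core of the NRF1 site, GCGCATGC, was in 8 (11.8%), against 6.18% of tested genes and 3.99% of all promoters. At least 1 of the 3 motifs was in 37 of the 68 promoters (54.4%), against 32.2% of tested genes and 21.9% of all promoters. The ETS core was in 7 of 18 promoters of members that were higher with β-elemene, in 10 of 25 of those that were lower and in 8 of 25 of those that did not pass. Shares of the other motifs were less even. The YY1 core was in 6 of 18 higher (33.3%), 4 of 25 lower (16%) and 3 of 25 not passing (12%). The NRF1 core was in 3, 2 and 3 of them. At least 1 of the 3 motifs was in 66.7% of the higher and 52% of the lower. In the printed stretches, Mrpl27 and Mrps26 both hold an ETS core and moved in opposite directions. These differences in share were not tested, and a match describes the letters in the window, not a bound site.

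The large subunit genes moved in both directions, in shares close to those of all tested genes, while most small subunit genes did not pass the test. Of the 48 large subunit genes, 18 were higher with β-elemene (37.5%), 20 were lower (41.7%) and 10 did not pass. Among all tested genes 36.6% were higher and 40.2% lower, so the large subunit's shares were close to the background. Of the 29 small subunit genes, 3 were higher (10.3%), 10 were lower (34.5%) and 16 did not pass. The CPM of the groups did not overlap for 40 of 48 large subunit genes (83.3%) and 14 of 29 small subunit genes (48.3%), against 79.8% of all tested genes. The median log2 fold change was -0.08 for the large subunit and -0.13 for the small subunit, beside -0.06 for all tested genes. Both medians stayed near that of all genes under the other scales. On library size alone they were -0.72 for the large subunit and -0.77 for the small, where all genes had -0.70. The difference between the subunits in these shares was not tested.

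Changes were modest in size. The log2 fold changes ran between -1.49 and 1.00 in the large subunit and between -1.14 and 0.51 in the small subunit. Their standard deviation (SD) over all 77 members was 0.53, against 1.71 over all tested genes, which ran between -13.5 and 14.1. The quartiles differed less than the SDs, at -0.51 and 0.22 for the members and -0.71 and 0.56 for all tested genes. At a level of at least 2-fold, 0 members were higher and 4 were lower (Mrpl42, Mrpl41, Mrps26 and Mrps35), whereas 17.0% of tested genes were at least 2-fold higher and 18.3% at least 2-fold lower. The highest member, Mrpl30, lay just short of 2-fold and passed it with median-of-ratios scaling (log2 fold change 1.04). Counts behind these values were between 114 and 1650 per library for the large subunit and between 74 and 1366 for the small subunit. Each member was thus far above the 3 counts that a count of 0 would allow.

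**Figure D1:**
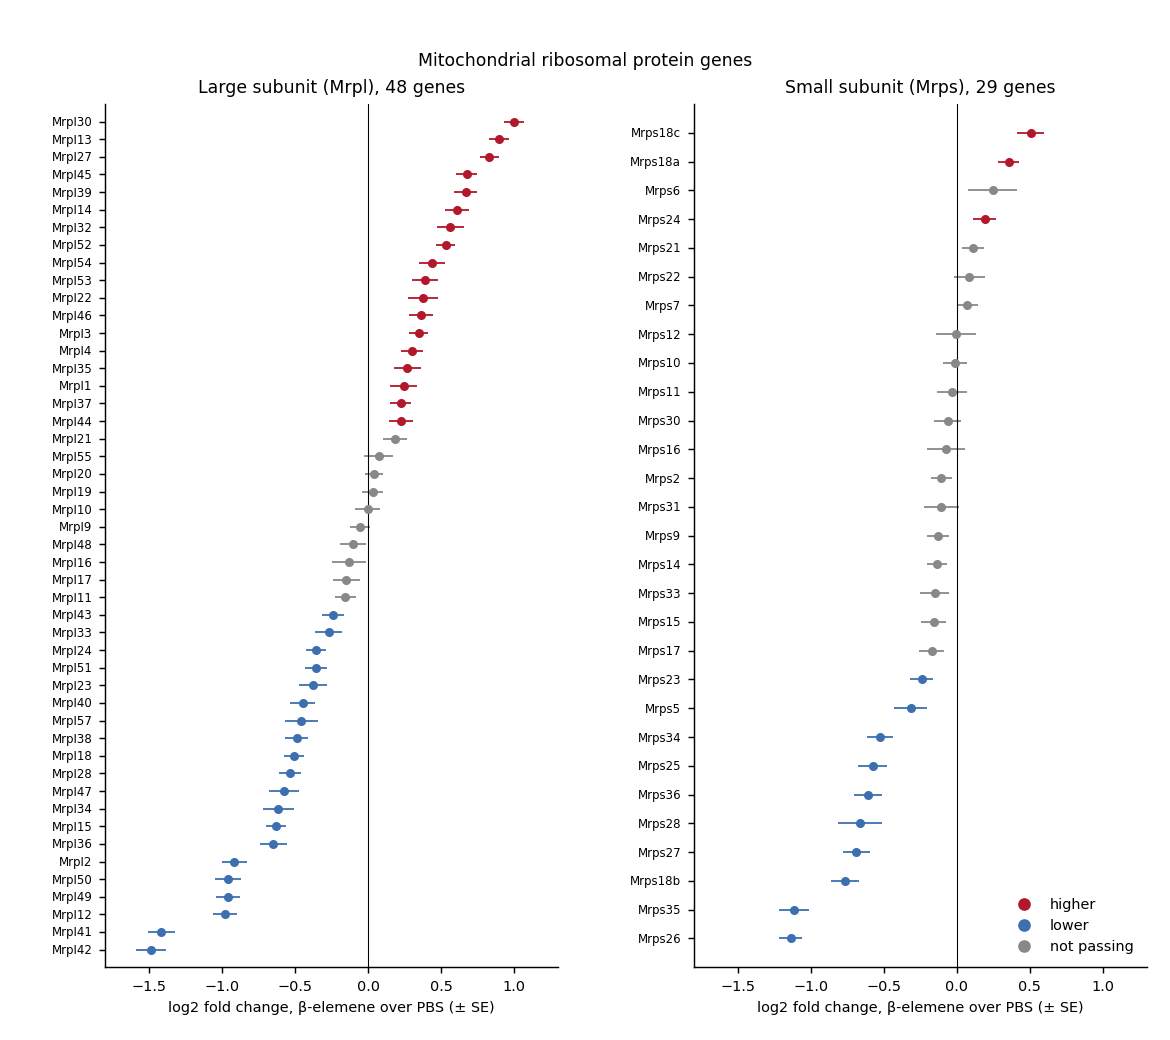
Log2 fold change of each of the 77 genes, β-elemene over PBS with TMM scaling, with bars of 1 standard error (SE), for the large subunit at left and the small subunit at right, sorted by size. Red genes were higher and blue genes lower at an adjusted p below 0.05 (edgeR), and the grey genes, which did not pass, are 10 of 48 in the large subunit and 16 of 29 in the small subunit. With the upper quartile or library size alone as the scale, many red genes lose the call or turn blue.

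The strongest rises belonged to large subunit proteins with bacterial relatives. Mrpl30 (chr1:37890477-37898338, GRCm38.p6), whose protein is a relative of bacterial L30, had 58.0, 55.1 and 54.1 CPM in the 3 β-elemene libraries, against 29.9, 25.9 and 27.8 CPM in the 3 PBS libraries. Every β-elemene library was above every PBS library, and the log2 fold change was 1.00 (SE 0.070, edgeR adjusted p = 1.88e-08). The rule for naming the strongest rises and falls required that the groups did not overlap. Mrpl13 (chr15:55534095-55557312), a relative of bacterial L13, had 42.6, 42.9 and 42.2 CPM with β-elemene, against 21.8, 23.3 and 23.6 CPM with PBS. That was a 1.86-fold rise with libraries of a group within a narrow range (SE 0.067, edgeR adjusted p = 3.46e-08). Of the exon bases of Mrpl13, 27.0% also lie in Mtbp on the opposite strand. Mrpl27, whose bacterial relative reaches the site of peptide bond formation, had 61.4, 66.8 and 59.4 CPM with β-elemene, against 34.5, 35.3 and 35.7 CPM with PBS. Its log2 fold change was 0.83 (SE 0.064, edgeR adjusted p = 5.39e-08). These 3 genes were the members called higher under all 4 scales, with log2 fold changes of 0.36 for Mrpl30, 0.26 for Mrpl13 and 0.19 for Mrpl27 when library size alone was used.

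Mitochondria-specific proteins were also among the rises. Mrpl45, which lies near the exit tunnel and helps to hold the ribosome at the inner membrane, had 39.8, 43.2 and 39.8 CPM with β-elemene, against 26.1, 24.1 and 26.6 CPM with PBS. The log2 fold change was 0.67 (SE 0.071, edgeR adjusted p = 1.23e-06), and the groups did not overlap. Mrpl39 had 36.6, 34.8 and 37.6 CPM with β-elemene, against 21.7, 22.1 and 24.9 CPM with PBS, and changed by the same 0.67 (log2, SE 0.077, edgeR adjusted p = 3.12e-06). Scaled by library size alone, Mrpl45 and Mrpl39 were at 0.04 and 0.03 and did not pass. Mrpl52 had the highest level for its transcript length of all 77 genes, at 172 CPM per kb with β-elemene and 119 CPM per kb with PBS. Its libraries stood at 71.0, 77.4 and 67.4 CPM with β-elemene, against 50.3, 47.4 and 51.8 CPM with PBS (log2 fold change 0.53, SE 0.067, edgeR adjusted p = 7.61e-06), and library size alone turned the difference to -0.11. The remaining 12 of the 18 large subunit rises lay between 0.22 (Mrpl44) and 0.61 (Mrpl14) on the log2 scale. Mrpl44, a protein with an RNase III-like fold, had 22.2, 21.0 and 20.8 CPM with β-elemene, against 17.4, 18.4 and 19.0 CPM with PBS. That small difference (edgeR adjusted p = 0.0215) was lost without PBS replicate 1 and was -0.41 with library size alone.

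The strongest falls were in mitochondria-specific proteins of both subunits. Mrpl42 (chr10:95480805-95501949) had 11.6, 10.5 and 13.8 CPM with β-elemene, against 36.1, 30.9 and 33.9 CPM with PBS. It was 2.80-fold lower with β-elemene (log2 fold change -1.49, SE 0.10, edgeR adjusted p = 1.64e-08), the largest fall among the 77 genes. Mrpl41 (chr2:24972470-24975098) had 7.44, 8.20 and 8.15 CPM with β-elemene, against 22.0, 21.1 and 20.4 CPM with PBS, and was 2.67-fold lower (SE 0.094, edgeR adjusted p = 1.13e-08). All 3 β-elemene libraries were far below the PBS libraries for these genes, whose proteins belong to the large subunit and have no relative in the bacterial ribosome.

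In the small subunit, Mrps26 (chr2:130563757-130565394) had 21.2, 26.6 and 23.4 CPM with β-elemene, against 51.0, 53.0 and 52.0 CPM with PBS. The fall was 2.20-fold (log2 fold change -1.14, SE 0.079, edgeR adjusted p = 1.72e-08). Mrps35 (chr6:147042728-147070906) had 7.19, 8.53 and 7.78 CPM with β-elemene, against 17.8, 16.1 and 17.0 CPM with PBS, and was 2.17-fold lower (SE 0.10, edgeR adjusted p = 3.66e-07). Mrps26 and Mrps35 are mitochondria-specific, and their groups did not overlap. Mrps27, a protein of the pentatricopeptide repeat type, which binds RNA, had 11.7, 11.5 and 10.5 CPM with β-elemene, against 17.6, 17.7 and 19.0 CPM with PBS (log2 fold change -0.69, SE 0.093, edgeR adjusted p = 1.43e-05). Mrps28 had 7.19, 11.0 and 7.11 CPM with β-elemene, against 13.9, 13.0 and 13.0 CPM with PBS (log2 fold change -0.66, SE 0.15, edgeR adjusted p = 0.00121). The β-elemene libraries of Mrps28 were uneven, with replicate 2 above the others, yet all were below the PBS libraries. Every member called lower with TMM, 20 in the large subunit and 10 in the small, was also called lower with median-of-ratios, upper quartile and library size scaling. The upper quartile and library size alone move values down from those with TMM. Median-of-ratios scaling moves them up only a little (median over all tested genes -0.02, against -0.06 with TMM). These scales could thus hardly have removed a fall. DESeq2 called 18 large and 8 small subunit genes lower, and did not call Mrpl43, Mrpl33, Mrps23 and Mrps5.

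Parts of the ribosome with a known task gave a mixed picture. Mrpl12 forms the flexible stalk that recruits elongation factors and Mrpl10 anchors it. Mrpl12 had 30.6, 33.2 and 26.9 CPM with β-elemene, against 63.9, 55.3 and 59.5 CPM with PBS, a 1.97-fold fall (log2 fold change -0.98, SE 0.083, edgeR adjusted p = 1.42e-07). Mrpl10 had 36.6, 31.6 and 30.3 CPM with β-elemene, against 32.7, 35.2 and 30.9 CPM with PBS (log2 fold change -0.00, SE 0.083, edgeR adjusted p = 0.965). The groups overlapped for the anchor and stood well apart for the stalk protein. Of the exon bases of Mrpl12, 15.2% also lie in other genes (largest overlap Gm16755), as do 14.1% of those of Mrpl10 (Gm11574). The other strong falls of the large subunit were Mrpl49, with 16.0, 17.8 and 19.2 CPM with β-elemene, against 34.2, 33.2 and 35.7 CPM with PBS, and Mrpl50, with 15.9, 16.4 and 13.6 CPM with β-elemene, against 31.2, 28.0 and 30.0 CPM with PBS. Both had a log2 fold change of -0.96 (edgeR adjusted p = 1.52e-07 for Mrpl49 and 3.70e-07 for Mrpl50). Mrpl2, which in bacteria sits close to the site of peptide bond formation, averaged 13.5 ± 0.947 CPM with β-elemene and 25.5 ± 0.304 CPM with PBS (SD, n = 3 each, log2 fold change -0.92).

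**Figure D2:**
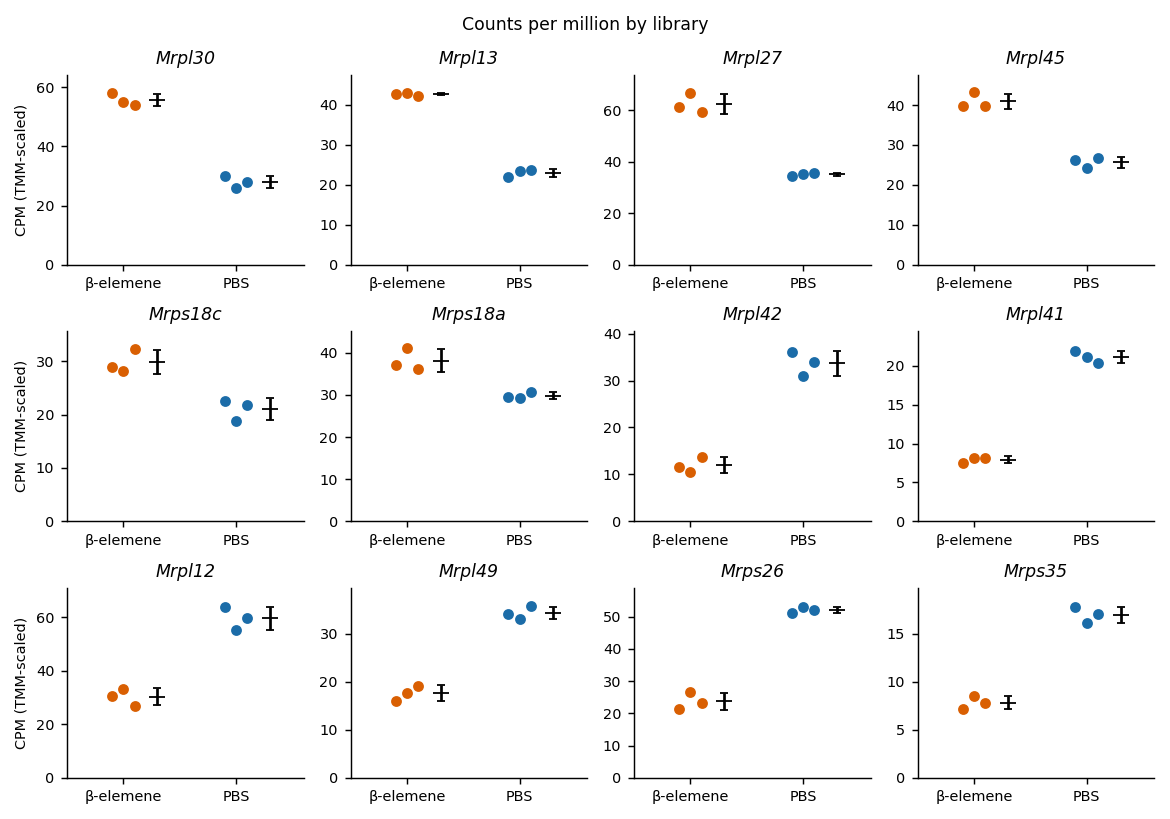
CPM with TMM scaling of 12 genes in each library, β-elemene at left and PBS at right in each panel, with the mean and SD as black bars and axes that begin at 0. In each panel the points of 1 group lie apart from those of the other, which the rule for naming these rises and falls required. The first libraries have 58.0 against 29.9 CPM for Mrpl30 and 11.6 against 36.1 CPM for Mrpl42. For Mrps18a the spread comes near the gap, with β-elemene libraries from 36.1 to 41.2 CPM and the highest PBS library at 30.7 CPM. Without TMM, by library size alone, Mrps18c and Mrps18a turn to the other direction.

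Among the 16 small subunit genes that did not pass were several with a known place or role. Mrps12, which lines the decoding site, had 6.76, 7.62 and 7.85 CPM with β-elemene, against 6.47, 8.50 and 7.29 CPM with PBS (log2 fold change -0.00, SE 0.14, edgeR adjusted p = 0.987). Mrps10 had 16.4, 16.5 and 16.6 CPM with β-elemene, against 16.8, 16.4 and 16.5 CPM with PBS (log2 fold change -0.01, SE 0.082, edgeR adjusted p = 0.922). These were the smallest differences in the small subunit, and the libraries of both groups were interleaved. Mrps16 and Mrps22, known from inherited deficiencies of mitochondrial translation in humans, were not called either. Mrps16 had 17.6, 16.7 and 13.9 CPM with β-elemene, against 19.0, 13.9 and 17.8 CPM with PBS (edgeR adjusted p = 0.624). Mrps22 had 13.0, 13.5 and 16.1 CPM with β-elemene, against 14.2, 13.0 and 12.9 CPM with PBS (edgeR adjusted p = 0.461). Mrps21 had the highest level for its length in the small subunit, at 63.5 CPM per kb with β-elemene and 58.7 CPM per kb with PBS, and its log2 fold change was 0.11 (edgeR adjusted p = 0.181). The gene of the large subunit with the smallest change beside Mrpl10 was Mrpl19, with 30.6, 27.9 and 28.3 CPM with β-elemene, against 27.4, 28.0 and 29.5 CPM with PBS (edgeR adjusted p = 0.702). Of its exon bases 39.2% also lie in Gcfc2.

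The paralogs Mrps18a, Mrps18b and Mrps18c, which descend from a single bacterial protein and take different places in the ribosome, did not move together. Mrps18c had 29.0, 28.2 and 32.4 CPM with β-elemene, against 22.5, 18.8 and 21.9 CPM with PBS (log2 fold change 0.51, SE 0.089, edgeR adjusted p = 1.72e-04). Mrps18a had 37.0, 41.2 and 36.1 CPM with β-elemene, against 29.4, 29.2 and 30.7 CPM with PBS (log2 fold change 0.35, SE 0.071, edgeR adjusted p = 4.91e-04). Mrps18b had 13.3, 12.4 and 13.0 CPM with β-elemene, against 23.6, 19.9 and 22.4 CPM with PBS (log2 fold change -0.76, SE 0.094, edgeR adjusted p = 5.78e-06). The groups did not overlap for any of the 3. When library size alone was used, Mrps18c was at -0.13 and Mrps18a at -0.28, and Mrps18b remained the lowest of the 3. Of the exon bases of Mrps18b, 59.1% also lie in Gm16279, and of those of Mrps18c, 18.5% also lie in other genes (largest overlap Gm43511). Mrps24, the third small subunit gene called higher, had 23.6, 22.3 and 22.1 CPM with β-elemene, against 19.0, 20.6 and 20.0 CPM with PBS (log2 fold change 0.19, edgeR adjusted p = 0.0395), and lost the call without β-elemene replicate 1, PBS replicate 1 or PBS replicate 3. It also lost the call with no filter on low counts (edgeR adjusted p = 0.0827) and with the replicate number as a block (edgeR adjusted p = 0.0566).

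A few proteins carry a name that does not match their place. In the structure of the mammalian ribosome Mrps30 and Mrps18a belong to the large subunit, and Mrps36 is a component of the 2-oxoglutarate dehydrogenase complex. Mrps30 had 21.5, 21.9 and 20.4 CPM with β-elemene, against 24.6, 19.8 and 22.1 CPM with PBS (edgeR adjusted p = 0.549). Of its exon bases 18.1% also lie in other genes (largest overlap B430218F22Rik). Mrps36 had 11.1, 10.7 and 11.5 CPM with β-elemene, against 18.2, 16.5 and 16.1 CPM with PBS (log2 fold change -0.61, edgeR adjusted p = 5.85e-05). Assigned by structure, the large subunit had 19 of 50 genes higher (38%) and 20 lower (40%), close to the shares of all tested genes (36.6% and 40.2%). The small subunit had 2 of 26 higher (7.69%) and 9 lower (34.6%).

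The members divide by descent into those with a bacterial relative and those found only in mitochondria. Of the 11 mitochondria-specific small subunit genes, 0 were higher, 7 were lower and 4 did not pass in edgeR's test, with a median log2 fold change of -0.53, where 36.6% of all tested genes were higher and 40.2% lower. At an unadjusted p below 0.05, edgeR also had 0 of them higher. After adjustment DESeq2 had 0 higher and 6 lower, without Mrps23, and limma-voom had 0 higher and 7 lower. The 7 were Mrps26, Mrps35, Mrps27, Mrps36, Mrps25, Mrps34 and Mrps23. Of the exon bases of Mrps25, 58.2% also lie in other genes (largest overlap Nr2c2), as do 22.6% of those of Mrps27 (6430562O15Rik). Mrps23 lost the call without β-elemene replicate 1 or PBS replicate 2. Assigned by structure, which leaves out Mrps36 and Mrps30, 6 of 9 such genes were lower and 0 higher. Of the 18 small subunit genes with a bacterial relative, 3 were higher, 3 lower and 12 did not pass, with a median of -0.05. In the large subunit, 8 of 18 mitochondria-specific genes were higher and 9 lower (median -0.17), and 10 of 30 with a bacterial relative were higher and 11 lower (median -0.03). The median over all tested genes was -0.06.

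Per library, the summed counts of the large subunit over those of the small subunit do not depend on how libraries are scaled. This ratio was 2.22, 2.20 and 2.19 in the β-elemene libraries, against 1.94, 1.95 and 1.95 in the PBS libraries. The mean was 2.20 ± 0.0186 with β-elemene and 1.95 ± 0.00887 with PBS (SD, n = 3 each), a log2 difference of 0.18, and the groups did not overlap. Summed CPM of the large subunit were 1233, 1284 and 1218 with β-elemene, against 1279, 1232 and 1256 with PBS, and overlapped. Summed CPM of the small subunit were 554, 585 and 557 with β-elemene, against 661, 631 and 643 with PBS, and did not overlap. As a share of all counts the 77 genes made up 0.143%, 0.152% and 0.141% with β-elemene, against 0.244%, 0.231% and 0.236% with PBS. On that measure, which does not use TMM, both subunits were lower with β-elemene. The large subunit made up 0.0986%, 0.104% and 0.0967% with β-elemene, against 0.161%, 0.153% and 0.156% with PBS. The small subunit made up 0.0443%, 0.0475% and 0.0442% with β-elemene, against 0.0832%, 0.0785% and 0.0798% with PBS. The log2 difference of the ratio was 0.22 with the subunits by structure, 0.12 from the geometric mean of the members and 0.12 without the 5 most abundant genes of each subunit.

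**Figure D3:**
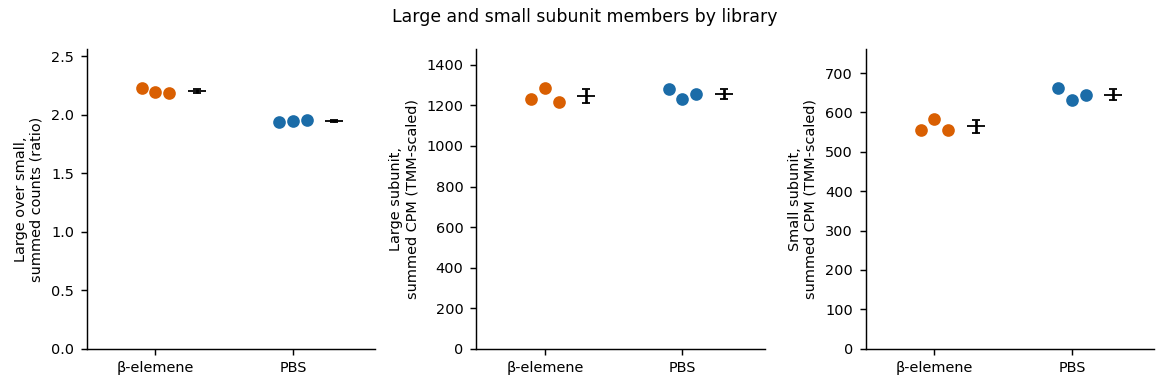
Ratio of summed large to summed small subunit counts (left), and summed CPM with TMM scaling of the large subunit (middle) and of the small subunit (right), 1 point per library with the mean and SD in black, β-elemene left of PBS. The ratio lies between 2.19 and 2.22 with β-elemene and between 1.94 and 1.95 with PBS, and the small subunit sums are lower with β-elemene while those of the large subunit overlap. Without TMM, as a share of all counts, both subunits are lower with β-elemene.

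How libraries were scaled decided most of the rises. Under all 4 scales 3 large subunit genes and 0 small subunit genes were called higher in edgeR's test, and 20 large and 10 small subunit genes were called lower. The falls had little room to be lost, since no scale moved values up from those with TMM by more than a small amount. A further 10 large subunit genes and 2 small subunit genes (Mrps18a and Mrps24) were called higher under 1 scale and lower under another. Calls over all 4 scales were not counted for all tested genes, so these counts have no background share. Rises also fell in number among all tested genes, with 4189 higher with TMM, 2947 with the upper quartile and 2166 with library size alone. With the upper quartile, 8 large subunit genes were higher and 24 small subunit genes lower, where 6528 of all tested genes were lower. On library size alone, 3 of 48 large subunit genes were higher and 39 lower, and 0 of 29 small subunit genes were higher and 28 lower. On that scale the log2 fold change of every small subunit gene was below 0, at any p. Under that scale 2166 of all tested genes were higher and 8003 lower.

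**Figure D4:**
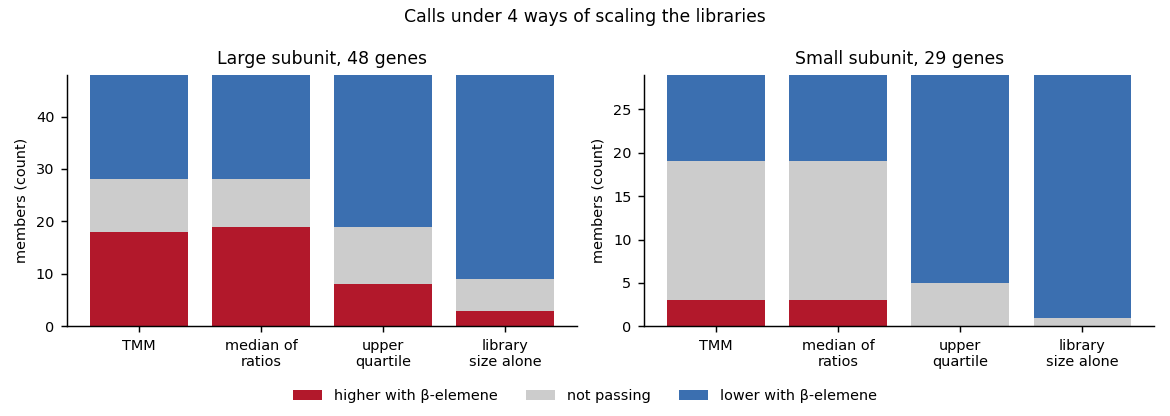
Number of large (left, of 48) and small (right, of 29) subunit genes called higher, lower or not passing in edgeR's test under 4 ways of scaling the libraries. The count of higher large subunit genes is 18 with TMM, 8 with the upper quartile and 3 with library size alone, and that of lower small subunit genes is 10 with TMM and 28 with library size alone. Among all tested genes, 4189, 2947 and 2166 were higher on those 3 scales, and 4602 were lower with TMM and 8003 with library size alone.

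Many of these genes share a start region with a neighbour. A protein-coding gene on the opposite strand began within 1000 bases upstream of the member's start, or up to 200 bases inside it, for 26 of the 77 members (33.8%), against 7.80% of 21840 protein-coding genes in GENCODE M21 and 12.7% of 11318 tested ones. For 4 of the 26 the partner began inside the member. Of 25 tested partners, 11 passed in the same direction as the member and 6 in the opposite direction, in the same 6 libraries. Since 76.7% of all tested genes passed, calls of both genes of a pair are common, and Mrpl46 and Mrps11 were counted once each as member and as partner. Mrpl30 and Mitd1, which encodes a protein of abscission, both rose, with log2 fold changes of 1.00 and 2.83. Mrpl43 and Peo1, the gene of the mitochondrial DNA helicase Twinkle, both fell, at -0.24 and -2.54, and their exons overlap. Mrps18b and Ppp1r10 went opposite ways, at -0.76 and 0.57, as did Mrps18c and Helq, a DNA helicase gene, at 0.51 and -0.87. In the pair printed above, the starts of Mrpl46 and Mrps11 are 42 bases apart in RefSeq. Mrpl46 had 23.7, 24.1 and 26.1 CPM with β-elemene, against 19.5, 18.0 and 20.0 CPM with PBS (log2 fold change 0.36, edgeR adjusted p = 0.00116). Mrps11 had 11.6, 13.1 and 12.0 CPM with β-elemene, against 13.4, 11.7 and 12.4 CPM with PBS (log2 fold change -0.03, edgeR adjusted p = 0.767). The pair thus had a gap between groups at Mrpl46 and overlapping groups at Mrps11, and with library size alone Mrpl46 was called lower.

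Genes that build and serve the mitochondrial ribosome were mostly lower with β-elemene when scaled by TMM, where 40.2% of all tested genes were lower. Of 27 genes for assembly and rRNA modification, 5 were higher and 15 lower, with a median log2 fold change of -0.47. Rbfa, an assembly factor of the small subunit, averaged 10.6 CPM with β-elemene and 35.7 CPM with PBS (log2 fold change -1.75), and Mrm2, an rRNA methyltransferase, had -1.35. Yme1l1, an inner membrane protease, had 0.75. Of 18 translation factors and related genes, 1 was higher and 13 lower, with a median of -0.52. Pdf, the peptide deformylase, had -1.22, and Slirp, which stabilises mitochondrial mRNAs with Lrpprc, had 1.03. Of 6 ribosomal proteins whose symbols lack the Mrpl or Mrps prefix, 1 was higher (Aurkaip1, 0.15) and 3 were lower (Gadd45gip1, Ptcd3 and Ict1, at -0.78, -0.63 and -0.33).

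Of 23 tested genes for copying, transcription and RNA processing of mitochondrial DNA, 5 were higher (21.7%) and 11 lower (47.8%), with a median of -0.27, where 36.6% of all tested genes were higher and 40.2% lower. Peo1 had a log2 fold change of -2.54 and Polg2, a subunit of the mitochondrial DNA polymerase, -1.92. Pnpt1, an RNA-degrading enzyme, averaged 153 CPM with β-elemene and 30.6 CPM with PBS, a log2 fold change of 2.32. Of 32 protein import genes, 8 were higher and 11 lower (34.4%), with a median of -0.14, and both shares were below those of all tested genes. They included Timm9 and Timm8a1, chaperones of the intermembrane space (-1.40 and -1.36), and Pmpcb, a subunit of the peptidase that removes import sequences (1.19).

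The respiratory chain, which the ribosome supplies, and the cytosolic ribosome had few large changes and smaller shares of calls than all tested genes, of which 36.6% were higher and 40.2% lower. Of 78 tested nuclear genes listed for the respiratory chain, 22 were higher (28.2%) and 16 lower (20.5%), with a median of 0.03 and an SD of 0.35. Cycs, cytochrome c, averaged 186 CPM with β-elemene and 58.3 CPM with PBS (log2 fold change 1.67), and Atp5s and Atp5sl, taken into the list by their symbols, had -1.17 and -1.07. Of 73 tested cytosolic ribosomal protein genes, 16 were higher (21.9%) and 14 lower (19.2%), with a median of -0.01 and an SD of 0.23, against 0.53 for the mitochondrial ribosomal proteins. Rpl24 and Rps20 had log2 fold changes of 0.81 and 0.52, and Rpl13a had -0.43. Cytosolic ribosomal protein genes have many pseudogenes that could share their reads, so these values are uncertain. All lists were fitted on the same 6 libraries, and the differences between lists were not tested. Scaled by library size alone, 70 of the 73 cytosolic genes and 76 of the 78 respiratory chain genes were called lower.

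**Figure D5:**
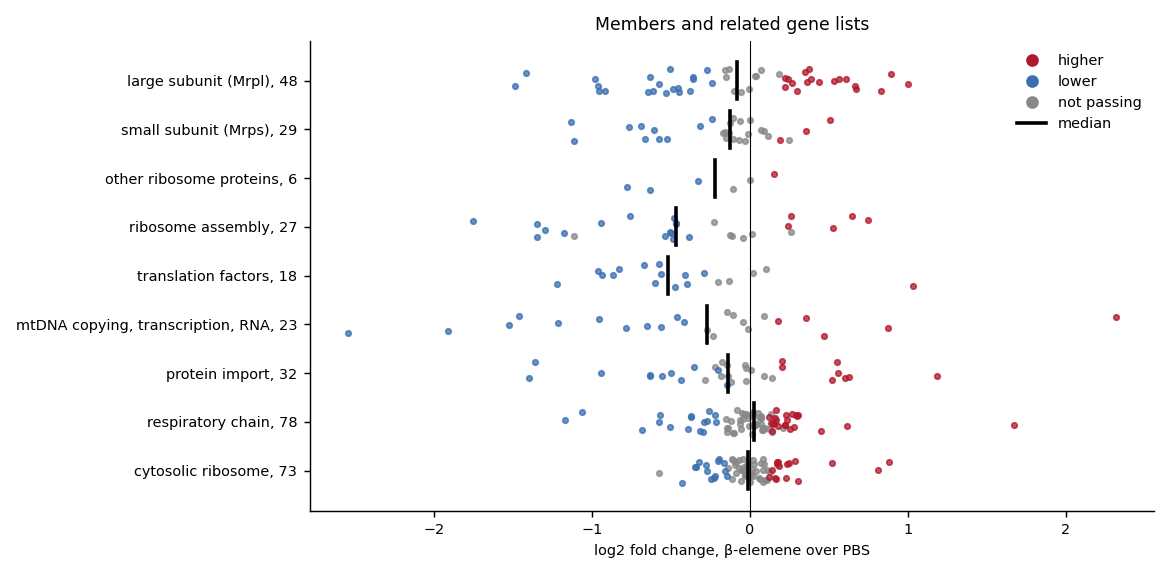
Log2 fold change, β-elemene over PBS with TMM scaling, of each tested gene of the large and small subunit and of 7 related lists, with black bars at the medians and colours for the call in edgeR's test. The medians are -0.08 and -0.13 for the subunits, -0.47 for assembly, -0.52 for translation factors and -0.01 for the cytosolic ribosome, and library size alone moves every list down, with the median of all genes at -0.70.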

How the data were processed

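Each of the 6 RNA samples (integrity number 7 or more) gave a strand-marking poly(A) library with paired reads of 125 or 150 bases, per the labels' protocols. Per the submitters' processing notes, reads were handled with HISAT2 2.2.1.0, and GRCm38.p6 and mm10 are the builds listed. Whole-number read counts per gene were deposited by the authors. How reads were counted, and with which strand setting, is not given in the sources used here, so antisense and overlapping genes cannot be told apart. Exons of 9 large and 7 small subunit genes overlap another gene by over 10% in GENCODE M21.

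The 27 symbols that a spreadsheet had turned into dates were restored, and 6562 of 21878 genes had no count. The edgeR function filterByExpr (count minimum 10, total minimum 15) chose the genes tested, which were scaled by TMM and tested with edgeR 4.0.16 (R 4.3.3, robust quasi-likelihood fit on group, 4 residual degrees of freedom), with Benjamini-Hochberg adjustment over 11459 genes. The biological coefficient of variation was 0.0709. The script was checked on simulated counts. CPM are TMM-scaled, and CPM per kb use the transcript length of GENCODE M21. A log2 fold change is β-elemene over PBS, its SE comes from the F statistic, and an adjusted p below 0.05 passed. Floors cover counting error only.

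The members and gene lists were chosen with earlier results of these data known. Named members were, per subunit, the 5 largest rises and falls that passed with groups that did not overlap, the 2 highest levels per length, the 2 smallest changes and a panel of structural and functional genes, and in each related list up to 3 passing genes by size and 1 of the opposite sign. A gene that this rule names in the cytosolic list is not reported here. Mrpl2, Mrpl46 and Mrps11 were named after their values were seen. Alternatives were 3 other scales, 2 other filters, DESeq2 1.42.0, limma-voom (limma 3.58.1), a replicate block, leaving out each library, subunits by structure and the geometric mean. Leaving out overlapping genes or the 5 most abundant of each subunit was chosen after seeing the data. Replicates were not duplicates (chi-square per degree of freedom 3.70 to 13.2).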

Additional observations from a re-analysis of the deposited data

How the results depend on the processing

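Scaling moved the counts most. With the upper quartile, 8 large subunit genes were higher (18 with TMM), 0 small subunit genes were higher (3) and 24 were lower (10), and the medians were -0.39 and -0.44. Of all genes tested, 2947 were then higher and 6528 lower. Related counts on that scale were 1 higher for assembly, and 3 higher and 64 lower for the cytosolic ribosome. Import had 5 higher and 23 lower, and the other ribosomal proteins had 0 higher and 6 lower. The respiratory chain had 2 higher and 62 lower, and transcription and RNA had 3 higher. With library size alone, 2166 of all genes were higher and 8003 lower, 3 large subunit genes were higher and 39 lower, 0 small subunit genes were higher and 28 lower, and the medians were -0.72 and -0.77. Related counts were then 0 higher and 24 lower for assembly, 2 and 70 for the cytosolic ribosome, 1 and 26 for import, 0 and 6 for the other ribosomal proteins, 1 and 76 for the respiratory chain, and 1 and 20 for transcription and RNA. The large subunit median was -0.039 with median-of-ratios scaling and with DESeq2. The log2 difference of the large-to-small ratio was 0.22 by structure, 0.12 from the geometric mean, 0.23 without overlapping genes and 0.12 without the 5 most abundant, and the difference in medians was 0.071 by structure. The cause was not tested.

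Replicate numbers did not pair the libraries, with correlations of -0.016, 0.089 and 0.038 between same-numbered libraries. The replicate block left 0 of the other ribosomal proteins higher, as did no filter, and brought Mrps12 to 0.00236. Leaving out 1 library gave 4021 to 4296 higher and 4347 to 4477 lower among all genes tested. It gave 16 to 19 higher and 18 to 20 lower large subunit genes, and 2 to 3 higher and 8 to 10 lower small subunit genes. It gave 3 to 6 higher for assembly (3 without β-elemene replicate 3 or PBS replicate 3), 0 to 1 for the other ribosomal proteins and 14 to 24 for the respiratory chain (14 without PBS replicate 3). It gave a difference in medians of 0.025 to 0.083, a large subunit median of -0.098 to -0.029 and a ratio difference of 0.17 to 0.18.

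Reversed log2 fold changes were 0.036 (Mrpl10), 0.037 (Mrps12) and 0.031 (Mrps10) with median-of-ratios scaling, 0.036, 0.038 and 0.031 for the same genes with DESeq2, and 0.0056 for Mrps12 with limma-voom. With the upper quartile they were -0.090 (Mrpl44), -0.28 (Mrpl19), -0.12 (Mrps24), -0.20 (Mrps21) and -0.23 (Mrps22). With library size alone they were -0.11 (Mrpl52), -0.41 (Mrpl44), -0.61 (Mrpl19), -0.13 (Mrps18c), -0.28 (Mrps18a), -0.45 (Mrps24), -0.52 (Mrps21) and -0.55 (Mrps22). Without 1 library, genes near no change crossed it: Mrpl10 lay between -0.071 and 0.065, Mrps12 between -0.094 and 0.11, Mrps22 between -0.00093 and 0.17, Mrps10 between -0.017 and 0.015, Mrps30 between -0.14 and 0.018, and Mrps16 between -0.20 and 0.041. Calls were lost for Mrpl35, Mrpl1, Mrpl37, Mrpl44, Mrpl43, Mrpl33, Mrps24, Mrps23 and Mrps5 without at least 1 of the libraries. The cause was not tested.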

Other observations

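Chromosome 11 held 10 of the 77 genes, and with β-elemene 4 of those were higher and 3 lower. Chromosome 17 held 8, of which 2 were higher and 5 lower. Among all tested genes 36.6% were higher and 40.2% lower. Across the 29 small subunit genes, log2 fold change and transcript length had a Pearson r of -0.43 (Spearman rho -0.42), and across the 48 large subunit genes 0.01 (Spearman rho -0.05). These are descriptions across genes of the same 6 libraries, and genes are not independent replicates.

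Genes that read or copy mitochondrial DNA moved in both directions when scaled by TMM. With library size alone, 1 gene of the list for copying, transcription and RNA processing was called higher and 20 lower. On that scale 2166 of all tested genes were higher and 8003 lower. Polrmt, the mitochondrial RNA polymerase, averaged 7.7 CPM with β-elemene and 17.8 CPM with PBS (log2 fold change -1.21), and Tfb2m, its initiation factor, 5.9 CPM with β-elemene and 16.4 CPM with PBS (-1.46). Tefm, an elongation factor of the same polymerase, was higher at 11.8 CPM with β-elemene and 6.4 CPM with PBS (0.88). Tfam, which packs mitochondrial DNA and starts its transcription, was higher with β-elemene (0.36), as was Polg, the catalytic subunit of its polymerase (0.18). These genes were chosen after their values were seen.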
